A study of Mus musculus with 6 samples.

Results

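Gasdermins are the pore-forming proteins of lytic cell death. The genes were taken by symbol from the read table: Gsdmc, Gsdmc2, Gsdmc3, Gsdmc4, Gsdmd, Gsdma and Dfna5, the older symbol of Gsdme. Of these 7 members, 6 had a row among the 20896 transcripts in the table. No row carried the symbol Gsdmc3, so its level was not analysed here. All 6 listed members passed the filter on low reads. The family was chosen by the fold changes of Gsdmc2 and Gsdmc4 between the groups of these libraries, both lower in the knockout clones, so the values of those 2 genes are given as a description and support nothing further.

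The libraries came from clonal lines of mpkCCD, a mouse kidney cell line with properties of principal cells, the cells through which vasopressin sets water reabsorption in the collecting duct. The tested clones carry the label PKA dKO, a double knockout of protein kinase A made with CRISPR-Cas9, and the others are labelled as controls; there were 3 clones in each group with 1 library per clone, so clonal differences are part of the spread and cannot be told apart from culture and library differences. The p-values weigh the spread between these clones. Which genes were edited is not given in the labels. All 6 clones were first cultured for 4 days, on permeable supports and in 2% serum, with insulin, dexamethasone, triiodothyronine, epidermal growth factor, selenite and transferrin added. All were then kept for 3 days in 0.1 nM dDAVP, a vasopressin analog, without serum or added hormones. The comparison asks how RNA levels under dDAVP differ in PKA dKO clones from control clones.

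In each gasdermin of the pore-forming kind, an N-terminal domain inserts into membranes and a C-terminal domain holds it back until a protease cuts the linker between them. Gsdmd is cut by the inflammatory caspases that inflammasomes activate. Gsdme, listed here as Dfna5, is known in humans from an inherited hearing loss. Human GSDMC is cut by CASP8. Mice carry several Gsdmc copies in place of a single human gene, and these copies are known from the epithelium of the intestine, while Gsdma is known from skin.

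Recovered read totals ran from 30541578 to 38760162 in PKA dKO libraries and from 28596444 to 42515838 in control libraries. PKA dKO clone 3 and control clone 1 stood apart from the other 4 libraries, with 2363 and 2443 transcripts without a read against 863 to 1045. Levels are in CPM, the read count scaled to the normalised library total. The summed level of the 5 fibroblast markers with a row was 1.82 to 5.13 CPM in PKA dKO and 1.36 to 6.19 CPM in control libraries, and that of the 4 epithelial markers 3828 to 4138 and 4175 to 4590 CPM. The 6 proximal tubule markers summed to 699.9 to 867 CPM in PKA dKO and 312 to 409.7 CPM in control libraries. Nearly all of that sum was Lrp2, the endocytic receptor megalin, at 687 to 851 CPM in PKA dKO and 299 to 392.3 CPM in control libraries, while 4 of the 6 markers had a negative fold change and the list's median was -0.09. The 6 urothelial markers summed to 263 to 268 CPM in PKA dKO and 314 to 359 CPM in control libraries. There Upk1a, a uroplakin, averaged 47.7 CPM in PKA dKO and 119.7 CPM in control libraries. Krt20, the most abundant of the list, averaged 213.6 and 213.5 CPM. Upk2, another uroplakin, averaged 1.17 and 2.76 CPM, a log2 fold change of -1.20 (SE 0.37). Of these 6 markers 4 had a negative and 2 a positive fold change, with a median of -0.50. In each of these lists 1 of 6 passed the threshold (Lrp2 higher, Upk1a lower), against 0.168% of all transcripts tested. Their part in the results was not tested. Prkaca, which encodes a catalytic subunit of PKA, had 6.65, 8.49 and 7.43 CPM in the PKA dKO clones, against 133, 75.9 and 90.6 CPM in the control clones. Prkacb, the gene of the other main catalytic subunit, had 99.1, 105 and 105 CPM against 137, 109 and 116 CPM, a log2 fold change of -0.23 (SE 0.13) with a limma-trend adjusted p of 0.937.

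The Gsdmc genes stand in a row on the minus strand of GRCm38 chromosome 15. Gsdmc (ENSMUSG00000079025.9, 12 exons) lies at 63775968 to 63808759, Gsdmc2 (ENSMUSG00000056293.12, 11 exons) at 63824346 to 63835949 and Gsdmc4 (ENSMUSG00000055748.12, 11 exons) at 63891265 to 63902936. GENCODE M21 places Gsdmc3 (ENSMUSG00000055827.13) between Gsdmc2 and Gsdmc4, at 63858271 to 63869297. All 4 are protein-coding. The coding sequence of Gsdmc2 was identical to that of Gsdmc3 at 97.1% of 1440 aligned bases, to that of Gsdmc4 at 93.8% of 1434 and to that of Gsdmc at 87.0% of 1387. The coding windows below are extremes, with the fewest and the most differences between Gsdmc2 and Gsdmc4. Over the 287 gap-free windows of 90 bases compared, the median was 1 difference between these genes. Sequences are those of the GENCODE M21 transcripts, written 5′ to 3′ along the coding strand, with capitals at bases that differ from Gsdmc2.

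Over coding bases 130 to 219 of Gsdmc2, Gsdmc2, Gsdmc3 and Gsdmc4 had the same 90 bases, while Gsdmc differed from them at 10.
Gsdmc2: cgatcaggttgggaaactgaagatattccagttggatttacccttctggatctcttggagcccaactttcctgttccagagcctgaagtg
Gsdmc: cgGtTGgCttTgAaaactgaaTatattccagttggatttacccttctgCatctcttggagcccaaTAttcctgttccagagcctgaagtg

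Coding bases 754 to 843 of Gsdmc2 held the most differences between Gsdmc2 and Gsdmc4 among the 287 gap-free windows compared, at 18 of 90 bases, against 8 for Gsdmc3 and 10 for Gsdmc.
Gsdmc2: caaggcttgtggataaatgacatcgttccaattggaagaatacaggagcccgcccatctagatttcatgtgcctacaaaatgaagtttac
Gsdmc4: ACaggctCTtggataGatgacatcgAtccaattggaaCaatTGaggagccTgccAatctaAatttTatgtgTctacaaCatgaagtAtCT
Gsdmc3: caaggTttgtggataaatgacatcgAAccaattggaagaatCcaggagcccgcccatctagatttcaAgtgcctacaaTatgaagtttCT
Gsdmc: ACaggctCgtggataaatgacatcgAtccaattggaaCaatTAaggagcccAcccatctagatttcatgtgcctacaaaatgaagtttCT

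Counted over all stretches of 50 bases, 47.7% of the listed Gsdmc2 transcript and 38.6% of the Gsdmc4 transcript were also found in a transcript of another gene. The partners were Gsdmc3 (37.1% of Gsdmc2 and 30.3% of Gsdmc4), the other of the pair (29.0% and 28.9%) and Gsdmc (14.9% and 9.85%). With stretches of 100 bases the shares were 24.8% and 19.6%. Neither the read length nor how the authors assigned reads that match several copies is given in the sources used here, so the separate values of Gsdmc2, Gsdmc4 and Gsdmc are uncertain by an amount that was not measured. No stretch of 50 bases of Gsdmd or Dfna5 occurred in another gene's transcripts, and 8.26% of those of Gsdma did, in Gsdma2 and Gsdma3.

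Gsdmc2 had the highest level of the 6 members with a row, with the uncertainty over the copies given above and with Gsdmc3 not analysed here. It had 19.5, 7.48 and 11.9 CPM in PKA dKO clones 1, 2 and 3, from 783, 236 and 423 reads. In control clones 1, 2 and 3 it had 252, 257 and 94.7 CPM, from 9106, 7860 and 4113 reads. The groups did not overlap, and the lowest control clone stood well above the highest PKA dKO clone. Means were 12.9 ± 6.08 CPM in PKA dKO clones and 201 ± 92.4 CPM in control clones (SD, n = 3 each), and the fitted log2 fold change was -3.92 (SE 0.39). The level was thus 15.2-fold lower in PKA dKO clones, between 8.35-fold and 27.6-fold at 95% confidence. In bulk RNA, fewer cells that express a gene and less RNA per cell cannot be told apart. Within the 4 libraries other than PKA dKO clone 3 and control clone 1 the log2 difference was -3.69, and between those 2 libraries it was -4.41.

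Gsdmc4 followed the same order of clones at a lower level. It had 11.2, 4.15 and 6.73 CPM in PKA dKO clones 1, 2 and 3, and 38.9, 40.0 and 24.96 CPM in control clones 1, 2 and 3. Every PKA dKO clone was again below every control clone. Means were 7.35 ± 3.54 CPM in PKA dKO clones and 34.6 ± 8.38 CPM in control clones (SD, n = 3 each), and the fitted log2 fold change was -2.31 (SE 0.32). The level was 4.96-fold lower, between 3.05-fold and 8.07-fold at 95% confidence. The log2 difference was -2.22 within the 4 libraries and -2.53 between PKA dKO clone 3 and control clone 1.

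Of the 6 members tested, 2 passed the threshold, Gsdmc2 and Gsdmc4, both lower (limma-trend, Benjamini-Hochberg adjusted p under 0.05). Over all 16683 transcripts tested 0.168% passed, 0.114% as lower and 0.0539% as higher. The values of Gsdmc2 and Gsdmc4 do not overlap between the groups, nor do those of Gsdma, which makes 3 of 6 members against 10.8% of all transcripts tested. All 3 had an unadjusted p under 0.05, as had 6.25% of all transcripts tested. Because the family was chosen with this contrast known, nothing is read from these counts. In the authors' deposited table, which holds 10190 transcripts, the edgeR log2 fold changes were -3.97 for Gsdmc2 and -2.25 for Gsdmc4, ranks 5 and 15 by p-value.

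**Figure D1:**
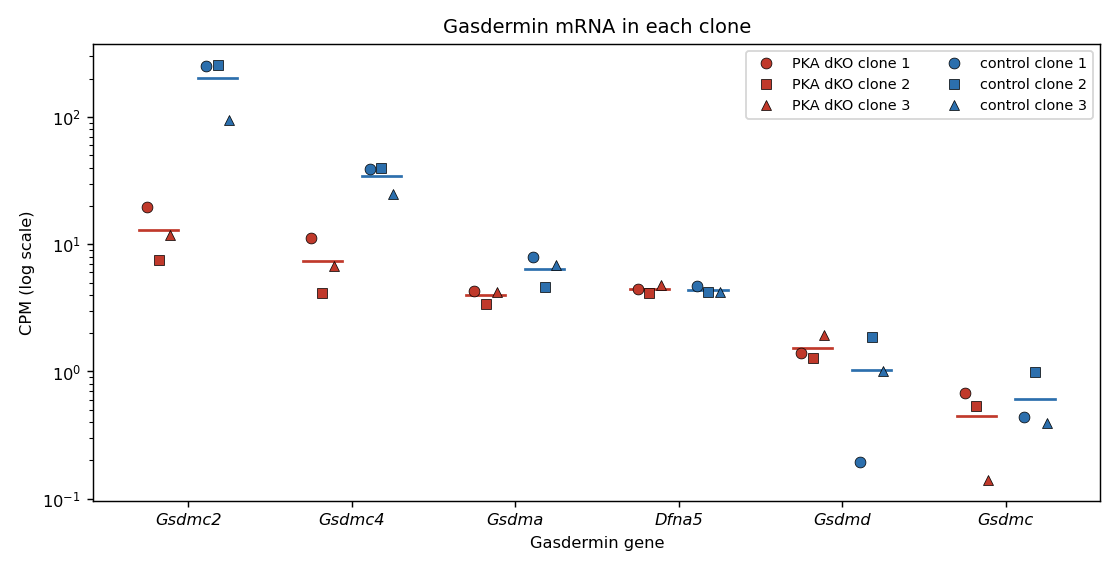
Level of each gasdermin with a row in the table, in CPM on a log scale, with 1 point per clone and a bar at the mean of 3 clones; PKA dKO clones are red and control clones blue. Gsdmc2 and Gsdmc4 are lower in all 3 PKA dKO clones, Dfna5 lies between 4.15 and 4.74 CPM in all 6 libraries, and Gsdmd is lowest in control clone 1, at 0.194 CPM.

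The 2 paralogs did not keep one ratio across the groups. Gsdmc4 took 36.4%, 35.7% and 36.2% of the reads on both genes in PKA dKO clones 1, 2 and 3, with 95% Wilson intervals of 33.8 to 39.1%, 31.0 to 40.7% and 32.6 to 39.9%. In control clones 1, 2 and 3 it took 13.4%, 13.5% and 20.9%, with intervals of 12.7 to 14.0%, 12.8 to 14.2% and 19.8 to 22.0%. The PKA dKO clones thus agreed within counting error although their summed reads on both genes ran from 367 to 1231, whereas control clone 3 lay outside the intervals of the other control clones. The share averaged 36.1 ± 0.360% in PKA dKO clones and 15.9 ± 4.30% in control clones (SD, n = 3 each). Put as a ratio, there were 1.75, 1.80 and 1.76 Gsdmc2 reads per Gsdmc4 read in PKA dKO clones and 6.48, 6.43 and 3.79 in control clones. The listed transcripts have nearly the same length, 1958 and 1965 bases. The intervals cover counting error only, no test was made because both genes led to the choice of the family, and the part played by reads that match both copies was not tested.

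**Figure D2:**
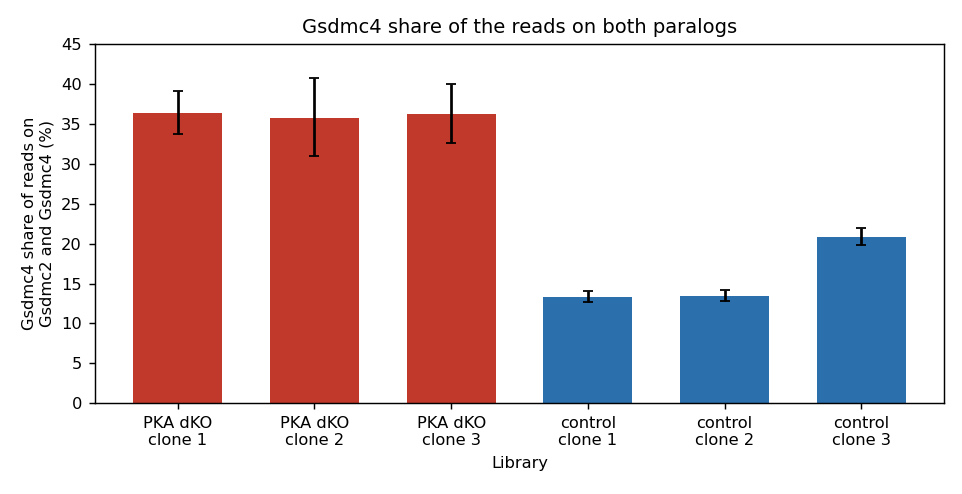
Share of Gsdmc4 in the reads assigned to Gsdmc2 and Gsdmc4, in percent, for each library, with 95% Wilson intervals; PKA dKO clones are red and control clones blue. The 3 PKA dKO libraries sit at 35.7% to 36.4% and the 3 control libraries at 13.4% to 20.9%.

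Gsdmc, the first of the row, was near the lower limit of detection in both groups. It had 27, 17 and 5 reads in PKA dKO clones 1, 2 and 3 and 16, 30 and 17 reads in control clones 1, 2 and 3, or 0.450 ± 0.277 and 0.605 ± 0.327 CPM (SD, n = 3 each). The groups overlapped, and the log2 fold change of -0.48 had a 95% interval of -2.18 to 1.21 (limma-trend adjusted p = 1.00). Changes in either direction within that interval were not excluded. The log2 difference was -1.66 between PKA dKO clone 3 and control clone 1 and -0.04 within the other 4 libraries, and the sign of the fitted value turned without PKA dKO clone 3, to 0.11. The neighbouring genes Gsdmc2 and Gsdmc4 shared 12.2% and 8.11% of the 50-base stretches of the Gsdmc transcript.

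The summed level of Gsdmc, Gsdmc2 and Gsdmc4 does not depend on which of these copies a shared read was given to. Gsdmc3 had no row and is outside the sum, though 37.1% of the 50-base stretches of Gsdmc2 and 30.3% of those of Gsdmc4 occur in it. How reads that also match Gsdmc3 entered the sum is not known. The sum was 31.3, 12.2 and 18.7 CPM in PKA dKO clones 1, 2 and 3 and 291, 298 and 120 CPM in control clones 1, 2 and 3. It averaged 20.7 ± 9.73 CPM in PKA dKO clones and 237 ± 101 CPM in control clones (SD, n = 3 each), and the geometric mean was 11.3-fold lower in PKA dKO clones. Control clone 3 had the lowest sum of its group and PKA dKO clone 1 the highest of its own. As Gsdmc2 and Gsdmc4 make up nearly all of it, the sum is a description with no test.

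Gsdmd, the main executioner of inflammasome-driven lytic death, is also on chromosome 15 (ENSMUSG00000022575.5; 75862339 to 75867404, plus strand). It had 56, 40 and 69 reads in PKA dKO clones 1, 2 and 3, which is 1.39, 1.27 and 1.94 CPM, and 7, 57 and 44 reads in control clones 1, 2 and 3, which is 0.194, 1.87 and 1.01 CPM. Control clone 1 alone stood low and the groups overlapped. The log2 fold change of 0.97 (SE 0.70, 95% interval -0.58 to 2.52) did not pass (limma-trend adjusted p = 1.00). The log2 difference was 3.32 between PKA dKO clone 3 and control clone 1 and -0.05 within the other 4 libraries. The fitted value rested mainly on control clone 1: it was 0.13 without that clone and 0.80 without PKA dKO clone 3. The 4219 tested transcripts under 1 CPM together had 2322, 2939 and 1074 CPM in PKA dKO clones 1, 2 and 3 and 997.9, 3802 and 2425 CPM in control clones 1, 2 and 3, and their part in the value of Gsdmd was not tested.

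Dfna5 (ENSMUSG00000029821.15; chromosome 6, 50207401 to 50263862, minus strand) was the steadiest member. It had 4.43, 4.15 and 4.74 CPM in PKA dKO clones and 4.73, 4.22 and 4.24 CPM in control clones. Its coefficient of variation was 6.67% in PKA dKO and 6.56% in control clones, against 47.0% and 45.9% for Gsdmc2. The log2 fold change of 0.01 had a 95% interval of -0.53 to 0.56, so a change beyond that range lies outside the interval while smaller ones do not (limma-trend adjusted p = 1.00). Chromosome 6 genes had a median deviation of -0.40 (log2) in PKA dKO clone 3, and with each library's chromosome medians removed the log2 fold change of Dfna5 was 0.18.

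Gsdma (ENSMUSG00000017204.4; chromosome 11, 98664351 to 98677708, plus strand) had 4.31, 3.42 and 4.21 CPM in PKA dKO clones and 7.88, 4.58 and 6.86 CPM in control clones. The groups did not overlap, but control clone 2 lay close to the PKA dKO clones. The log2 fold change was -0.66 (SE 0.28), with an unadjusted p of 0.0368 that did not pass over all genes (limma-trend adjusted p = 0.712). In the authors' deposited table its log2 fold change was -0.70 with a false discovery rate of 0.142. Its neighbours Gsdma2 and Gsdma3 were at 0.192 ± 0.0563 and 0.261 ± 0.201 CPM in PKA dKO clones and 0.429 ± 0.322 and 0.249 ± 0.174 CPM in control clones (SD, n = 3 each). Gsdma2 was too low to be tested, as was Dfnb59, the gene of pejvakin, a family member of the inner ear, with 21 reads over the 3 PKA dKO libraries and 32 over the 3 control libraries.

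Levels of different genes were compared per length, as CPM per kilobase. In PKA dKO clones the order was Gsdmc2 (3.82 to 9.96), Gsdmc4 (2.11 to 5.68), Dfna5 (1.67 to 1.91), Gsdma (1.27 to 1.59), Gsdmd (0.723 to 1.10) and Gsdmc (0.0589 to 0.282). The ranges of Gsdmc2 and Gsdmc4 overlapped there, while the other neighbours in the order did not. In control clones the order was Gsdmc2 (48.4 to 131), Gsdmc4 (12.7 to 20.4), Gsdma (1.70 to 2.92), Dfna5 (1.70 to 1.91), Gsdmd (0.110 to 1.06) and Gsdmc (0.164 to 0.413). Gsdma and Dfna5, and Gsdmd and Gsdmc, overlapped in that order. Among all tested transcripts the mean level of Gsdmc2 stood at percentile 51.3 in PKA dKO clones and 96.6 in control clones, and Gsdmc4 at 44.7 and 71.0, whereas Dfna5 stood at 39.3 and 38.9. Gsdmc2 made up 47.0%, 35.6% and 40.1% of the gasdermin reads in PKA dKO clones 1, 2 and 3, against 82.9%, 83.3% and 71.7% in control clones 1, 2 and 3.

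Of the 28 genes past the threshold in the whole table, 8 lie on chromosome 15, all lower, and Gsdmc2 and Gsdmc4 are among them. The chromosome holds 702 of the 16683 transcripts tested. Of 8 tested genes within 2 Mb of the row, none passed with limma-trend, edgeR or DESeq2, and 1, Myc, had an unadjusted p under 0.05. Over all transcripts tested 0.168% passed with limma-trend and 6.25% had an unadjusted p under 0.05, so with 8 genes such counts say little. Fam49b, which lies 26.2 kb beyond Gsdmc4 and encodes a regulator of the actin cytoskeleton, had 93.4, 92.0 and 84.7 CPM in PKA dKO clones and 101, 80.3 and 84.1 CPM in control clones. The groups overlapped, with a log2 fold change of 0.03 and a 95% interval of -0.25 to 0.32. Asap1, the next gene, encodes a GTPase-activating protein for ARF proteins and had a log2 fold change of 0.12 (95% interval -0.25 to 0.48).

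On the other side the nearest tested genes were Pvt1, a long non-coding RNA gene 1525 kb away, and Myc, a growth transcription factor. Myc had 61.4, 65.4 and 73.8 CPM in PKA dKO clones and 74.1, 91.1 and 87.9 CPM in control clones. Its log2 fold change was -0.33 (SE 0.13, limma-trend adjusted p = 0.679). Within the 4 libraries 518 genes passed, against 28 over all libraries, and Myc was among them at -0.49 (limma-trend adjusted p = 0.0444). Pvt1 stood at -0.27 (SE 0.16). The other genes among the 5 nearest on each side ranged from -0.45 for Adcy8, an adenylyl cyclase gene with 1.10 ± 0.529 CPM in PKA dKO and 1.62 ± 1.08 CPM in control clones (SD, n = 3 each), to 1.10 for A1bg, at 0.363 ± 0.203 and 0.249 ± 0.354 CPM.

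Inside the row, the pseudogene Gsdmcl2 on the plus strand had 17, 12 and 1 reads in PKA dKO clones 1, 2 and 3 and 18, 27 and 27 in control clones 1, 2 and 3. The groups did not overlap. Its log2 fold change of -1.45 had a 95% interval of -3.37 to 0.47 and did not pass (limma-trend adjusted p = 0.964). The pseudogene Gsdmcl1, between Gsdmc2 and Gsdmc3, had 10, 12 and 2 reads against 4, 6 and 8 and was not tested. Chromosome 15 as a whole had a median log2 fold change of -0.14, against -0.00 over all genes tested, and with chromosome medians removed Gsdmc2 stood at -3.79 and Gsdmc4 at -2.18. Within 5 Mb the median over 34 tested genes other than the gasdermins was 0.06.

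**Figure D3:**
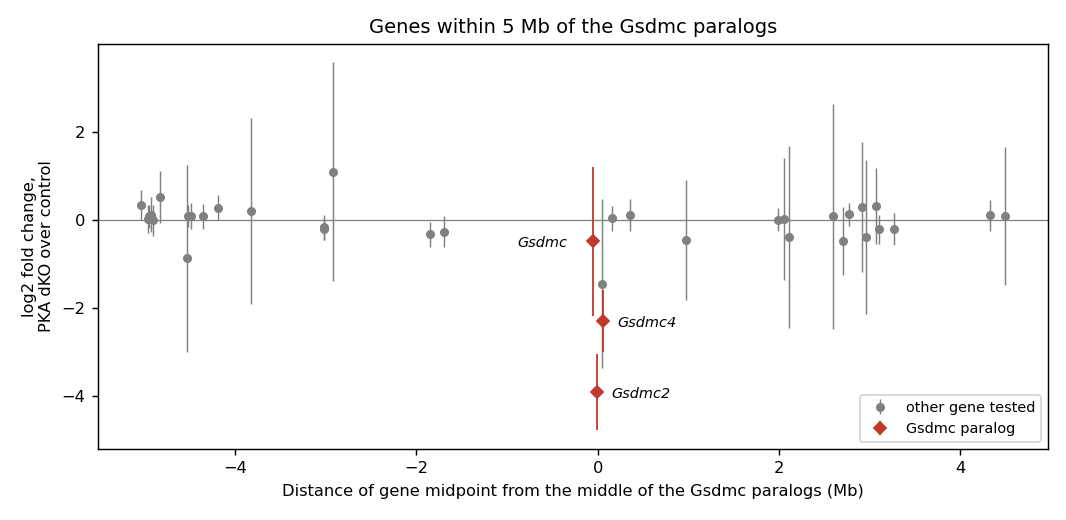
Fitted log2 fold change of PKA dKO over control clones, with 95% intervals, against the distance of each gene's midpoint from the middle of the Gsdmc row in Mb. Gsdmc2 at -3.92 and Gsdmc4 at -2.31 lie below every other tested gene shown. The pseudogene Gsdmcl2, between them, lies at -1.45, while Fam49b and Asap1, the nearest points to the right of Gsdmc4, lie at 0.03 and 0.12.

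Genes that act with gasdermins were read from 7 lists. Of their 59 tested members none passed in either direction with limma-trend, edgeR or DESeq2, and 3 had an unadjusted p under 0.05, all higher (Il13ra1, Birc2 and Jak2). That is 5.08% of the list genes tested, against 6.25% of all transcripts tested, of which 0.168% passed the threshold. Their median log2 fold change was -0.09, against -0.00 over all genes tested. Among the proteases that cut gasdermins, Casp8, which cuts human GSDMC, had 71.1, 76.4 and 81.4 CPM in PKA dKO clones and 86.4, 70.1 and 75.4 CPM in control clones, with a log2 fold change of -0.02 (95% interval -0.30 to 0.27). Casp6, a caspase of apoptosis, stood at 0.20 (SE 0.23). Casp4, the mouse sensor of intracellular lipopolysaccharide, had 2.14, 0.982 and 0.617 CPM in PKA dKO clones and 5.17, 0.786 and 1.54 CPM in control clones, with control clone 1 the highest. The neutrophil protease gene Elane stood at 0.29 (SE 0.95) from 53 reads in PKA dKO and 43 in control libraries. Casp1 had 10 reads over the 3 PKA dKO libraries and 15 over the 3 control libraries, too few to be tested.

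Of 12 tested inflammasome sensors and adaptors 3 had a positive and 9 a negative fold change, and 10 of the 12 averaged under 1 CPM, among them Nlrp3, Aim2 and Nlrc4. Nek7, a kinase that binds Nlrp3, was abundant at 131 ± 1.41 CPM in PKA dKO and 149 ± 18.2 CPM in control clones (SD, n = 3 each; log2 fold change -0.18, limma-trend adjusted p = 1.00). Naip1, Naip2 and Naip6, of a family that senses bacterial proteins, stood at -0.67, -0.45 and -0.69 with standard errors of 0.71, 0.47 and 0.69.

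Among cargo and rupture genes, Hmgb1, a nuclear protein released by dying cells, had 213 ± 21.6 CPM in PKA dKO and 176 ± 8.53 CPM in control clones (SD, n = 3 each; log2 fold change 0.27, limma-trend adjusted p = 0.818). Ninj1, which ruptures the plasma membrane after pores form, had 38.1 ± 6.37 and 37.4 ± 4.66 CPM, a log2 fold change of 0.02. The cytokine genes Il1b and Il33 were low in both groups, at 0.256 ± 0.229 and 0.941 ± 0.723 CPM in PKA dKO and 0.249 ± 0.0400 and 0.786 ± 0.654 CPM in control clones.

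The ESCRT genes, whose proteins shed damaged membrane, had a negative fold change in 8 of 9 tested members. The median was -0.18, against -0.00 over all genes tested, and the range was -0.27 to 0.12. None had an unadjusted p under 0.05 with limma-trend and none passed the threshold. Chmp3, an ESCRT-III subunit gene, had 129 ± 23.7 CPM in PKA dKO and 154 ± 4.81 CPM in control clones (SD, n = 3 each; log2 fold change -0.27, limma-trend adjusted p = 0.930). Chmp2b stood at -0.20, Pdcd6, which recruits ESCRT proteins on calcium entry, at -0.19 and Chmp1a at -0.23.

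Of 16 tested genes of necroptosis, apoptosis and ferroptosis, Birc2, an inhibitor of apoptosis that ubiquitinates Ripk1, had 69.5 ± 2.62 CPM in PKA dKO and 55.2 ± 9.32 CPM in control clones (SD, n = 3 each; unadjusted p = 0.0352, limma-trend adjusted p = 0.704). Acsl4, an acyl-CoA synthetase of ferroptosis, stood at -0.36, Cflar, the inhibitor of Casp8, at -0.22 and Bax, which permeabilises mitochondria, at -0.28. Mlkl, the pore former of necroptosis, had 20.3 ± 3.56 and 20.4 ± 3.16 CPM.

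Type 2 cytokines raise Gsdmc genes in the mouse gut, so a list was made of their receptor genes, Jak, Tyk2 and Stat genes and Cd274. Of its 10 tested members 3 had a positive and 7 a negative fold change, with a median of -0.07. Il13ra1, a receptor subunit for IL-13, had 71.0, 67.7 and 64.9 CPM in PKA dKO clones and 58.2, 47.0 and 52.2 CPM in control clones. All PKA dKO clones were above all control clones, with a log2 fold change of 0.38 (SE 0.13) that did not pass (limma-trend adjusted p = 0.508). Jak2, a receptor-bound kinase, stood at 0.37 (SE 0.17) and Stat3 at 0.14 (SE 0.11). The receptor gene Il4ra stood at -0.16 (SE 0.17) and Stat6 at -0.11 (SE 0.13). The shared receptor chain gene Il2rg stood at -1.01 (SE 0.92) with 18 reads over the PKA dKO and 41 over the control libraries.

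**Figure D4:**
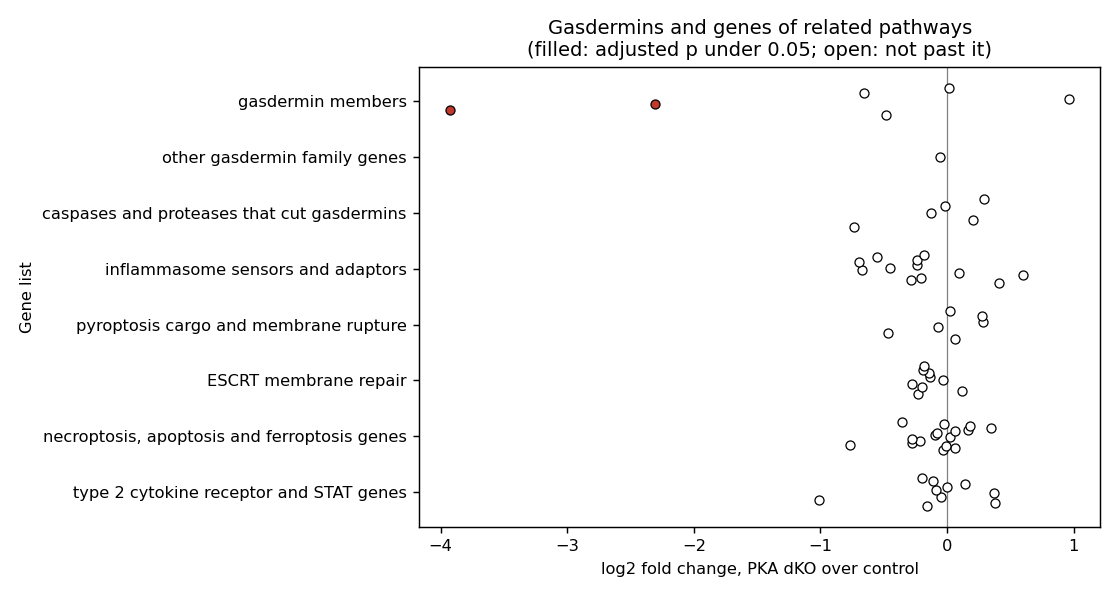
Fitted log2 fold change of PKA dKO over control clones for the gasdermin members and for each tested gene of the 7 lists, with 1 point per gene; filled points have a limma-trend adjusted p under 0.05. Gsdmc2 and Gsdmc4 are the filled points, at -3.92 and -2.31, and the list genes run from -1.01 for Il2rg to 0.60 for Nlrp9b.

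The genes whose log2 levels were most like those of Gsdmc2 over the 6 libraries were sought among 1421 genes with a mean of at least 2 CPM and a range of at least 1 on the log2 scale. The highest Pearson correlations were 0.984 for Klf5, an epithelial transcription factor, 0.983 for Hid1, which acts in the making of secretory granules, 0.983 for Aldh3b2, an aldehyde dehydrogenase, 0.980 for Upk3b, a uroplakin of urothelium, and 0.980 for Tcn2, a vitamin B12 carrier. Klf5 had 46.7, 37.8 and 37.5 CPM in PKA dKO clones and 77.4, 69.0 and 60.1 CPM in control clones. Its log2 fold change was -0.76 (limma-trend adjusted p = 0.111). Hid1 at -1.32 (limma-trend adjusted p = 0.0023) and Upk3b at -1.08 (limma-trend adjusted p = 0.0243) passed the threshold. Aldh3b2 at -1.58 and Tcn2 at -0.83 did not. Genes sought by likeness to Gsdmc2 differ between the groups as it does, so nothing is read from these calls. The correlation of Gsdmc4 with Gsdmc2 was 0.989, that of Gsdma 0.760 and that of Dfna5 0.05. The points fall into 2 groups that differ in level, and over 6 libraries such correlations describe likeness only. For Dfna5, which hardly varied, the same search gave Oasl1 (0.962), Apex2 (0.957), Plin4 (0.950), Klhl22 (0.941) and Abtb2 (0.940). Each of these genes was highest in PKA dKO clone 3 and control clone 1, the libraries that stood apart.

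Aqp2, the vasopressin-controlled water channel on the same chromosome, had 3.39, 2.72 and 1.82 CPM in PKA dKO clones and 399, 140 and 157 CPM in control clones. The clones took another order for Aqp2 than for Gsdmc2: among control clones Aqp2 was highest in clone 1 and near one level in clones 2 and 3, while Gsdmc2 was near one level in clones 1 and 2 and lowest in clone 3.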

How the data were processed

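RNA depleted of ribosomal RNA (262 ng of total RNA per library) was made into stranded libraries, per the labels' protocols. Per the submitters' processing notes, the build was GRCm38.p5 and the tools included HOMER 4.8, STAR 2.5.2a, edgeR and SAMtools, with no roles given. The deposited read columns are a signal: the authors scaled each library to one total. Dividing by each library's step gave whole reads for 100% of values in 1 library and 99.99% or more in the others (tolerance 0.01 scaled reads). The deposited FPKM values served only to check the order of levels. The authors' deposited comparison table gives log2 fold changes and p-values.

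Scaled reads were divided by TMM factors (edgeR 4.0.16; 0.909 to 1.07), taken to log2 after adding 1 scaled read and tested with limma-trend in R 4.3.3 (limma 3.58.1). The added read is about 0.055 CPM, so fold changes of low genes are understated. filterByExpr (minimum 10 reads, total 15) kept 16683 transcripts and left out 4213. Group was the only term over 6 libraries, with Benjamini-Hochberg adjustment and a threshold of 0.05. CPM came from recovered reads with TMM-adjusted totals. The script was tested on simulated data. Members, gene lists and alternatives were chosen with earlier results of these data known. Named genes were the members, Prkaca, Prkacb, Aqp2, the list genes past the threshold or with the 4 lowest p in a list, the 5 nearest tested genes on each side of the Gsdmc row and the 5 genes most like Gsdmc2 and Dfna5; further list genes were named after their values were seen, and a gene that the rule names is not reported here. DESeq2 1.42.0 and edgeR on recovered reads were alternatives. Epithelial markers were high in all libraries and the defining markers of immune, endothelial and fibroblast lists were low, except Csf1r.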

Additional observations from a re-analysis of the deposited data

How the results depend on the processing

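Over 19 alternatives the number of gasdermins past the threshold was 2 in 17. It was 1 with no TMM factor, where Gsdmc4 had a limma adjusted p of 0.0506 at a log2 fold change of -2.30, and 0 with no filter, where Gsdmc2 (-3.92; 0.445) and Gsdmc4 (-2.31; 0.497) both failed; the cause was not tested. Both genes stayed lower in all 19, from -4.40 to -3.58 for Gsdmc2 and from -2.66 to -1.96 for Gsdmc4. As these genes led to the choice of the family from the same libraries, the alternatives describe the processing only and add no support. The summed paralogs ran from -3.93 to -3.17 when single libraries were left out; the other tests and filters give no value for that sum. The number of all genes past the threshold, 28, was 17 with no TMM factor, 0 with no filter, 209 with DESeq2, 71 with a term for the libraries that stood apart, 518 within the other 4 and 11 to 146 leaving out 1 library (146 without control clone 1, 47 without PKA dKO clone 3, 13 without PKA dKO clone 1, 11 without PKA dKO clone 2). Clone numbers did not pair the samples (correlations of deviations -0.357, 0.639 and -0.339), and a replicate block by clone number gave 196 genes with the members' count at 2. Near the Gsdmc row 1 gene, Myc, passed within the 4 libraries. Signs turned for Gsdmd within the 4 libraries (-0.042), for Gsdmc without PKA dKO clone 3 (0.11; range -0.85 to 0.11) and for Dfna5 (range -0.028 to 0.071 leaving out 1 library; -0.016 without control clone 2, -0.012 without control clone 3 and -0.028 without PKA dKO clone 3). The order of levels in each group was the same with the deposited FPKM. Depth limits Gsdmc, with as few as 5 reads, and Gsdmd, with as few as 7.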
